A study of Mus musculus with 90 samples.

Results

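The 4 single-replicate H3K9me3 peak lists of wild-type (WT) and TKOL mouse embryonic stem cells were compared across the genome. Peaks that shared at least 1 bp were merged into 80752 loci (mm9), and each locus was classed by the lists that held a peak in it. Loci with a peak in both WT lists and in neither TKOL list are called WT-only (832 loci, 1.03% of all), loci with a peak in both TKOL lists and in neither WT list TKOL-only (3581 loci, 4.43%), and 9368 loci (11.6%) had a peak in all 4 lists. The WT cells were of strain V65 with an intact genotype. The TKOL cells were a clonal line of strain J1 that lacked catalytically active Dnmt3a and Dnmt3b and carried a shRNA against Dnmt1, so that strain, clone and genotype changed together and cannot be told apart. DKO0 cells, used here as a separate readout, were derived from TKOL by Cre excision of the shRNA, which left Dnmt1 on in the absence of both Dnmt3 enzymes. All lines were grown on mouse feeder cells. Both lists of a line came from replicates labelled 1 and 2, and p-values measure only the spread between these lists.

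H3K9me3 is the histone mark of constitutive heterochromatin and of silenced repeats. In embryonic stem cells the KRAB zinc finger proteins bind repeat sequences and bring in Trim28, which in turn recruits the methyltransferase Setdb1 that places the mark, while the Suv39h enzymes serve satellite repeats around the centromeres. Uhrf1, the partner of the maintenance methyltransferase Dnmt1, has a domain that binds the mark. At imprinted control regions the mark lies on the DNA-methylated allele, where the zinc finger protein Zfp57 binds methylated DNA.

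By a measure that reaches units of up to 100 bp, the strongest WT-only loci were mostly tandem arrays, as were 4 of the 5 strongest shared loci. The strongest TKOL-only loci mostly were not. The central 240 bases of selected loci are given here as examples, in the mm9 forward strand with CpG sites in capitals. The first group holds strong WT-only loci, each named by the nearest protein-coding gene.
Chl1, 196 kb away, chr6:103264537-103264776: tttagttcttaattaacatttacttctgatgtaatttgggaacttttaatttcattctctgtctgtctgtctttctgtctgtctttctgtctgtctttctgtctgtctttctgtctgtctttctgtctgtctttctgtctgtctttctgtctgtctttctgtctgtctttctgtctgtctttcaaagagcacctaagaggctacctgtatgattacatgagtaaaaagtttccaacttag
9230019H11Rik, 2.77 kb away, chr10:7229830-7230069: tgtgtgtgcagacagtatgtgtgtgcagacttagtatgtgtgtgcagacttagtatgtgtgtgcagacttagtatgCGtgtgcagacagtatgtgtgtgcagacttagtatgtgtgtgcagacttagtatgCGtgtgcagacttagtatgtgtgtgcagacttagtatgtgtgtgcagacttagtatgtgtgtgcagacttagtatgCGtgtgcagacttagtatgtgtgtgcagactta
Samd9l, 171 kb away, chr6:3151213-3151452: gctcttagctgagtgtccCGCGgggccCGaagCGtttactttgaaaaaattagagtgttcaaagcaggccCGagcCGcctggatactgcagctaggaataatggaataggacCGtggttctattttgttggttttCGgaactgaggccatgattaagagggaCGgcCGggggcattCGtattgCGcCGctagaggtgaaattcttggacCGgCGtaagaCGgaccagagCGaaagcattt
Fgfr2 and Btbd16, inside an intron, chr7:137918240-137918479: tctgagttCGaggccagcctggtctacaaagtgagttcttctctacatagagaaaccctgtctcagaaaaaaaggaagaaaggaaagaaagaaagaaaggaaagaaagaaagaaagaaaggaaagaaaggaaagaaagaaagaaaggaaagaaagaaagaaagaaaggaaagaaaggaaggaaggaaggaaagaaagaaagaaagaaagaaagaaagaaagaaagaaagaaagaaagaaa
The next group holds 2 of the strongest TKOL-only loci and the one with the longest covered length in both lists.
Col22a1, inside an intron, chr15:71653199-71653438: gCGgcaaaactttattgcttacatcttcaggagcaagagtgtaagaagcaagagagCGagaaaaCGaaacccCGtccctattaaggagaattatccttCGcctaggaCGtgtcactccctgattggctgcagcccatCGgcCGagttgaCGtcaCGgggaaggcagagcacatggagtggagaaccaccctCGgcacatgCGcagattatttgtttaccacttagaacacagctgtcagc
Tox3, 155 kb away, chr8:92615309-92615548: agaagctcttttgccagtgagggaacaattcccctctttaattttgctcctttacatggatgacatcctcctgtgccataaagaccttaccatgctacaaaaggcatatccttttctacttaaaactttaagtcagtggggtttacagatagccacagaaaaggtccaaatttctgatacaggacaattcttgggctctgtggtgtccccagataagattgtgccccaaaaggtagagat
Slc8a1, 140 kb away, chr17:81644393-81644632: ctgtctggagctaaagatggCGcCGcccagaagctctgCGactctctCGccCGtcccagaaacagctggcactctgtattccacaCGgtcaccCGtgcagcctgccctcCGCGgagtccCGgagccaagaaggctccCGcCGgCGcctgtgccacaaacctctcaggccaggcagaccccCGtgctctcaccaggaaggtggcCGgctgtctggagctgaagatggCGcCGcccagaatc
The letters of the 9230019H11Rik locus, of the latter part of the Fgfr2 locus and of the middle of the Chl1 locus are runs of short units repeated head to tail, and those of the Samd9l locus are an 18S ribosomal RNA stretch (read from general knowledge, not from an annotation). In contrast, the Col22a1 locus matched the IAP LTR (the promoter-bearing end of intracisternal A particle retrotransposons) that the study amplified, at 98.2% identity, and the same LTR lay in the TKOL-only loci near Arl15 and Pet2. The Slc8a1 stretch opens and closes with nearly the same run of bases, a repeat spaced wider than the 100 bp that the measure reaches.

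The 4 lists held 29438 and 25951 peaks in WT and 55121 and 32702 in TKOL. TKOL replicate 1 stood apart in length. It covered 19.05 Mb, against 8.60 and 7.72 Mb in WT and 9.32 Mb in TKOL replicate 2. The mean covered length was 14.2 ± 6.88 Mb in TKOL and 8.16 ± 0.619 Mb in WT (SD, n = 2 lists each), and the lines did not overlap (exact permutation test, two-sided, p = 0.333, the smallest that 2 lists against 2 can give). The difference of 6.03 Mb fell to 1.16 Mb without TKOL replicate 1 and 2.40 Mb at equal list size. The median peak was 221 and 226 bp long in WT and 227 and 223 bp in TKOL, and the lines overlapped (difference 1.5 bp, exact permutation p = 0.667). Of the peaks in WT replicate 1, 47.9% overlapped a peak of WT replicate 2 and 66.8% overlapped one of TKOL replicate 1, the longest list.

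**Figure D1:**
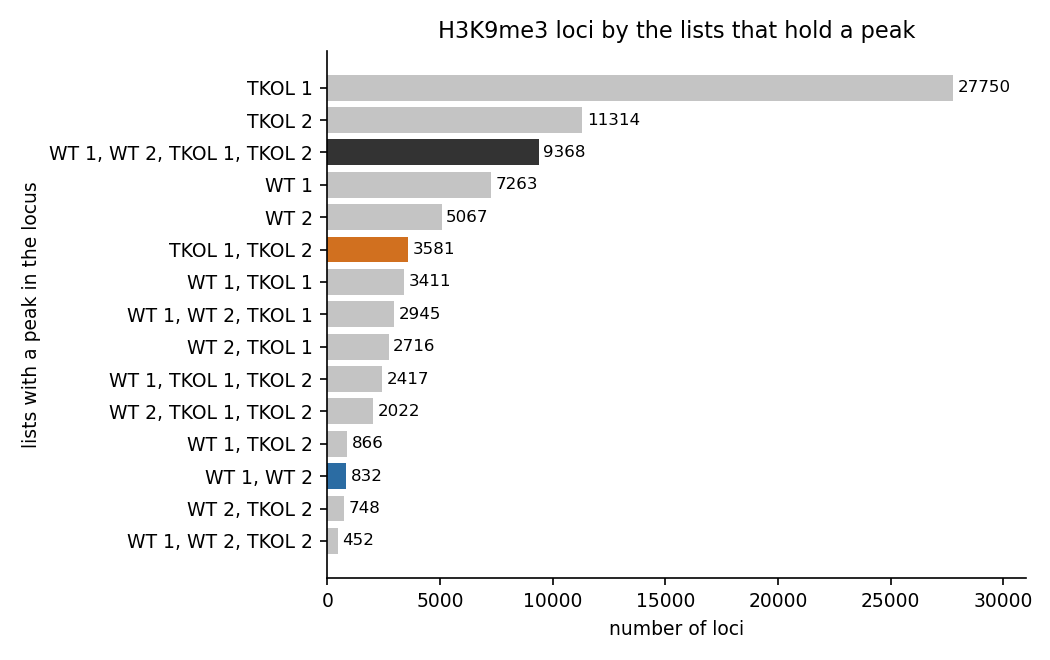
Number of merged H3K9me3 loci (x axis) for each combination of lists that held a peak (y axis), with WT-only loci in blue, TKOL-only loci in orange, loci of all 4 lists in dark grey and all other combinations in light grey. WT-only loci (832) were about as many as loci found in WT replicate 1 and TKOL replicate 2 alone (866).

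Most loci did not repeat between lists. Loci in a single TKOL list numbered 39064 and loci in a single WT list 12330. The 832 WT-only loci stood beside 866 and 748 loci that TKOL replicate 2 shared with WT replicate 1 or 2 alone, while the 3581 TKOL-only loci stood beside 3411 and 2716 that TKOL replicate 1 shared with WT replicate 1 or 2 alone. The plot of loci by list combination shows all 15 combinations. When each list was limited to its 25951 strongest peaks, WT-only and TKOL-only loci came to 1476 and 1552, a log2 ratio of -0.07 against -2.11 with full lists. The excess of TKOL-only over WT-only loci was thus almost gone at equal list size. Without WT replicate 1 or 2, where WT is judged on a single list, the log2 ratio was 0.00096 or 0.54.

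The loci particular to 1 line were short and weak beside the shared ones. The median length was 265.5 bp for WT-only, 312 bp for TKOL-only and 726 bp for loci in all 4 lists, and 2, 39 and 2845 loci of these classes were at least 1 kb long. A locus is the union of its peaks, so loci of 4 lists are longer in part by construction. Within single lists the median covered length of shared loci was 397 and 384 bp in WT and 597.5 and 390 bp in TKOL. Taking the weaker replicate's highest -log10 q-value as the strength of a locus, the median was 1.45, 1.53 and 1.85, just above the calling limit near 1. These values come from the peaks that defined the classes and are given as a description only. A strength of 5 or more was reached by 10 WT-only loci, 1 TKOL-only locus and 434 shared loci.

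**Figure D2:**
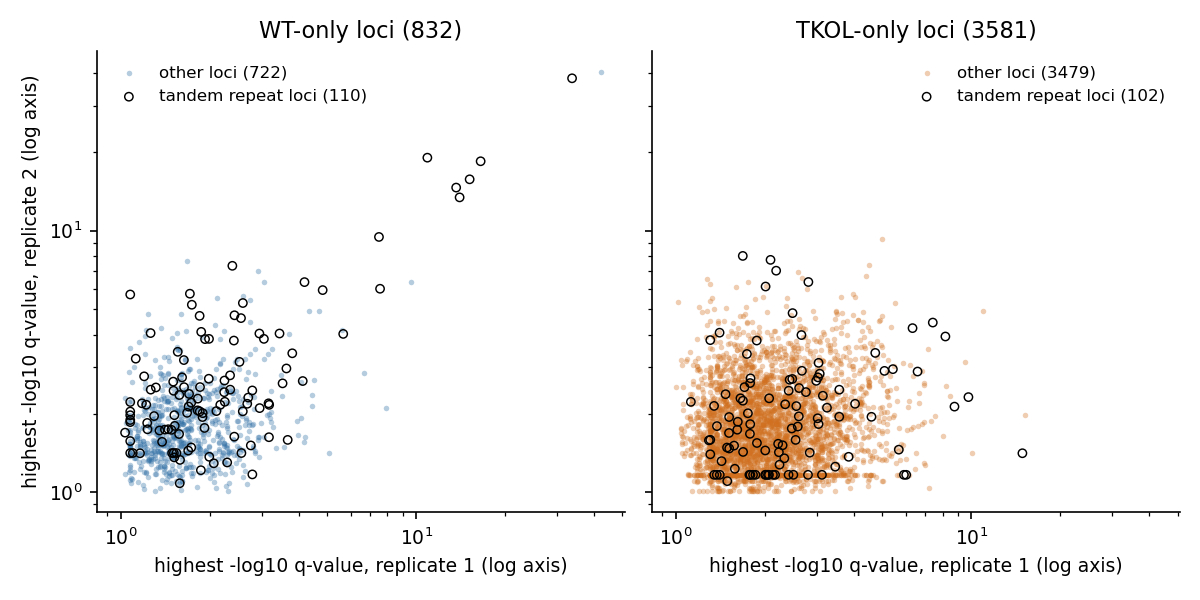
Highest -log10 q-value in replicate 1 (x axis) and replicate 2 (y axis), both on log axes, for each WT-only locus (left) and TKOL-only locus (right), with tandem repeat loci as open circles. The strongest WT-only loci, most of them open circles, lie far above the rest in both replicates, whereas no TKOL-only locus exceeded 5.30 in both.

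Of the 10 strongest WT-only loci, 8 were tandem arrays (the other two lay nearest Chl1 and Samd9l) and none touched an exon. The peak names of these lists mention no input library, so whether q-values and fold enrichments at arrays are set against an input is not known, and some of these arrays also carried peaks in Trim28 or Uhrf1 lists. The locus nearest Chl1, a neural cell adhesion molecule, lay at chr6:103264450-103264864 with a -log10 q-value of 42.2 and 40.4 and a fold enrichment of 14.0 and 14.2 in the WT replicates. It had no H3K9me3 peak in either TKOL list or in either DKO0 list. A Trim28 peak lay there in both WT lists and in TKOL replicate 1, and no Uhrf1 list of either line had a peak there. The sequence of the Chl1 locus holds a 12-bp unit (53.9% of bases periodic, below the limit used for an array), and 8 of 10 sampled 31-bp words occurred once in mm9.

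A run of 5 WT-only loci lay within 7552 bp at chr10:7229468-7237019 beside 9230019H11Rik, a gene without an assigned role, and it was the only run of 3 or more WT-only loci spaced at most 10 kb apart. Their -log10 q-values ran from 7.49 to 33.7 in replicate 1 and from 9.45 to 38.1 in replicate 2, at fold enrichments of only 1.78 to 2.81. None of the 5 had a peak in TKOL or DKO0 H3K9me3 lists. All 5 carried a Uhrf1 peak in both WT lists and in neither TKOL list, while a Trim28 peak lay at all 5 in TKOL replicate 1, at none in TKOL replicate 2, at 3 in WT replicate 1 and at 1 in WT replicate 2. The loci shared one repeat, with 57.4% to 84.7% of the 31-bp words of the smaller locus shared between any pair, and an assembly gap lies 0.184 kb from the nearest of them.

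The intronic locus of Tusc3, a subunit of the oligosaccharyltransferase complex, bordered an assembly gap, had a 24-bp period, and reached 14.0 and 13.4 in WT, with DKO0 peaks of 3.51 and 2.598 that overlapped only 38 and 31 bp of it and none in TKOL. The locus 0.499 kb from Spocd1, a protein needed for piRNA-directed DNA methylation in male germ cells, reached 10.9 and 18.98 in WT and had no peak in TKOL or DKO0. The intronic array that overlaps both Fgfr2, a fibroblast growth factor receptor, and Btbd16 reached 7.55 and 5.99 and was likewise absent from TKOL and DKO0. The locus with ribosomal sequence nearest Samd9l reached 9.57 and 6.37, with DKO0 peaks of 3.46 and 1.83. A 54-bp array in an intron of Kdelr2, the receptor that returns proteins to the endoplasmic reticulum, was the only WT-only locus outside the run beside 9230019H11Rik among the 5 with the longest covered length, at 3.67 and 1.59.

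The leading TKOL-only loci were weaker, and most of them were of high-copy sequence. The intronic locus of Col22a1, a collagen chain, led with 5.54 and 5.30 in TKOL, no peak in WT, and 3.61 and 8.34 in DKO0. The locus nearest Tox3, a chromatin-binding HMG-box protein, had 4.97 and 9.28, and the one nearest Kcnv1, a potassium channel subunit, 10.9 and 4.92. Next came loci nearest Mbnl1, a splicing regulator (4.98 and 4.73), A530054K11Rik (4.89 and 4.55), Arl15, a small GTPase (4.53 and 7.42), and Arrdc3, an arrestin-domain protein (4.86 and 4.51). The words of the Tox3, Kcnv1 and Arrdc3 loci had a median of 1144, 653.5 and 8596 copies in mm9, and those of the Arl15 locus, where 5 of 10 were unique, a median of 2. Of the 10 strongest TKOL-only loci, the Spg11 locus, over an exon of the gene for the lysosomal protein spatacsin (7.41 and 4.45), was the only tandem array, with a 31-bp period and mostly single-copy words.

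The Col22a1, Arl15 and Pet2 loci carried the same LTR. All 261 words of the Pet2 locus occurred in the Col22a1 locus, and the Arl15 locus shared 84.1% of the words of the Col22a1 locus. Each of these LTR loci carried a Trim28 peak in both WT lists. In TKOL a Trim28 peak lay at Arl15 in both lists, at Pet2 in replicate 2 and at Col22a1 in neither. Uhrf1 peaks lay at Arl15 in both WT lists and at Pet2 in WT replicate 1, and at none of these loci in TKOL. The 5 TKOL-only loci with the longest covered length in both lists also shared sequence in groups. The loci nearest Slc8a1 (the sodium-calcium exchanger), Tmem2 (a cell surface hyaluronidase) and B230118H07Rik carried one CpG-rich repeat, with 85.1% to 95.2% of the words of the smaller locus in common and 81, 89 and 57 CpG sites, and the Impad1 and Smok2b loci shared 71.7%. The Slc8a1, Tmem2 and B230118H07Rik loci held only 350, 386 and 249 different words in 1099, 1222 and 781 bp, so words also recurred within each of them. All 5 had a peak in both DKO0 lists, for example with -log10 q-values of 4.83 and 4.48 at Slc8a1 against 2.42 and 2.27 in TKOL.

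A locus was counted as a tandem array when at least 60% of the bases in its central 400 bp equalled the base a fixed 2 to 100 bp further on, a measure added after the sequences had been seen. Arrays of longer units, such as the repeat of the Slc8a1 locus, are not counted, so the shares below are for short units only. By this count 110 WT-only loci (13.2%), 102 TKOL-only loci (2.85%) and 467 shared loci (4.99%) were arrays, against 4.15% of all loci, 5.69% of loci in a single WT list and 3.63% of loci in a single TKOL list. Within WT-only loci the share rose with strength, from 10.1% of 715 loci below 2 to 25.8% of 93 loci between 2 and 3 and 6 of 7 loci at 10 or more. Most of these 7 loci are pieces of the single run beside 9230019H11Rik and share its repeat, so they are not independent. Among shared loci it rose likewise, from 2.63% below 2 to 53.6% of 151 loci at 10 or more. Among TKOL-only loci it was 2.44% below 2 and 4.46% between 2 and 3. Copies of the IAP LTR amplicon were in 121 TKOL-only loci (3.38%) in 4 WT-only loci (0.481%) and in 499 shared loci (5.33%), beside 2.42% of all loci. For the single lists these shares were 1.90% in TKOL and 0.941% in WT.

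High-copy sequence dominated every class. At least 5 of 10 sampled 31-bp words had 10 or more copies in mm9 at 80.4% of WT-only, 93.0% of TKOL-only and 93.5% of shared loci, against 65.5% of loci in a single WT list and 62.8% of those in a single TKOL list. The CpG density was 1.89, 1.70 and 2.11 per 100 bp in the 3 classes, above the 0.834 of the whole genome. Only 204 WT-only loci (24.5%) and 800 TKOL-only loci (22.3%) overlapped a protein-coding gene, 8 and 25 touched an exon, and 8 and 15 lay within 1 kb of a transcription start. Within 5 kb of a shared locus were 20.7% of WT-only and 28.3% of TKOL-only loci, against 13.9% and 13.8% of loci in a single WT or TKOL list.

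DKO0 had not been used to define the classes, and it carried H3K9me3 more often at TKOL-only than at WT-only loci. A peak in both DKO0 lists was found at 1386 TKOL-only loci (38.7%, 95% Wilson interval 37.1 to 40.3) and at 151 WT-only loci (18.1%, 15.7 to 20.9). Loci of a single TKOL or WT list had 6.63% and 4.57%, loci with 1 list of each line 27.3%, and shared loci 91.0%. The intervals cover counting error only. Among TKOL-only loci the share rose from 33.7% below a strength of 2 to 56.4% between 2 and 3 and 74.0% (64.9 to 81.5) between 3 and 5. In WT-only loci it was 18.04%, 19.4% and 14.3% (4.01 to 39.9) over the same steps. Of the 7 WT-only loci at 10 or more, most of them pieces of the run beside 9230019H11Rik, 1 (the Tusc3 array) had a peak in both DKO0 lists. DKO0 shares strain and clonal origin with TKOL, so these cannot be told apart from genotype. Without TKOL replicate 1 or 2 a class rests on single lists and the order of the shares turned (48.0% of WT-only and 13.5% of TKOL-only loci without replicate 1, and 26.0% and 11.3% without replicate 2).

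**Figure D3:**
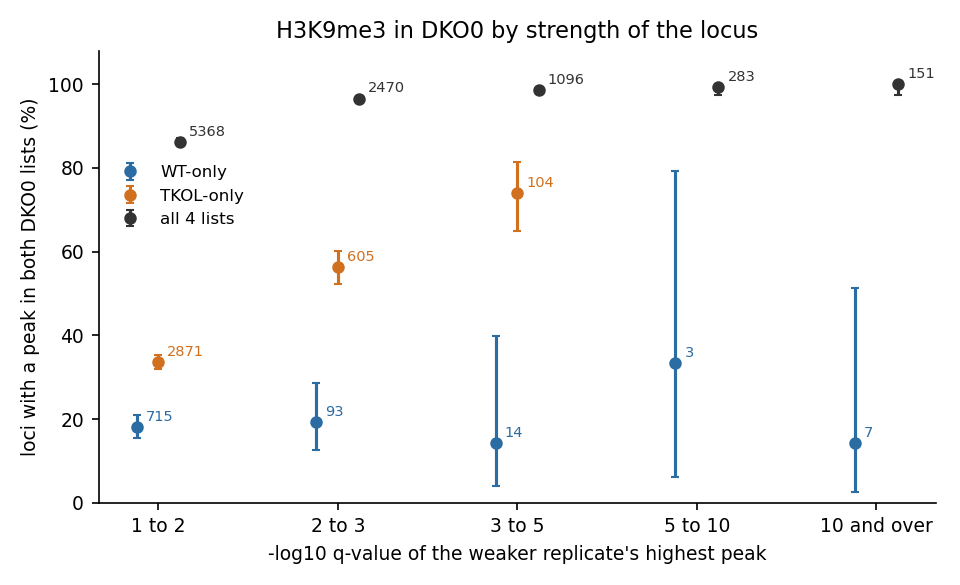
Share of loci with a peak in both DKO0 lists (y axis, %) by the strength of the locus (x axis, -log10 q-value of the weaker replicate), for WT-only (blue), TKOL-only (orange) and shared (dark grey) loci, with 95% Wilson intervals as bars and the number of loci beside each point. Classes with fewer than 3 loci in a step are left out. The TKOL-only share rises from 33.7% to 74.0%, and the WT-only points lie between 14.3% and 33.3%.

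Trim28 was measured in the same lines and Uhrf1 in clones derived from them that carried a FLAG tag on Uhrf1, and neither was used to choose the loci. A Trim28 peak lay in 22.8% and 11.2% of WT-only loci in the WT lists and in 34.7% and 11.8% in the TKOL lists, which overlapped (difference 6.25 percentage points, exact permutation p = 0.667). At TKOL-only loci the shares were 19.7% and 10.6% in WT and 26.2% and 14.0% in TKOL, again overlapping (difference 4.97 points, exact permutation p = 0.667). The Trim28 differences ranged from 3.75 to 16.1 points at WT-only and from 0.18 to 6.66 points at TKOL-only loci when 1 list was left out, and without TKOL replicate 1 they were 16.1 and 0.18 points. At shared loci Trim28 was far more frequent, with 62.3% and 40.6% in WT and 73.7% and 52.2% in TKOL.

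Uhrf1 peaks were fewer in TKOL at both classes. They lay in 8.65% and 14.9% of WT-only loci in WT and in 7.33% and 4.57% in TKOL (difference -5.83 points), and in 8.21% and 13.1% of TKOL-only loci in WT and 5.61% and 2.21% in TKOL (difference -6.76 points). The lines did not overlap in either class, and the exact permutation p was 0.333 for each, the smallest possible. The same order held over all 80752 loci (9.21% and 14.0% in WT, 7.47% and 4.20% in TKOL), and the Uhrf1 lists themselves were longer in WT (30133 and 49155 peaks) than in TKOL (17437 and 14811 peaks). The part of list length in this difference was not tested. At TKOL-only loci the difference was -2.69 points without TKOL replicate 1 and -33.7 points with peaks limited to a -log10 q-value of 5 and above. At WT-only loci it was -2.68 points without WT replicate 2, -3.85 points without WT replicate 1 and -3.03 points with that limit. Most loci chosen at that limit have weaker H3K9me3 peaks in the other line, so they are a different set from the classes above.

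**Figure D4:**
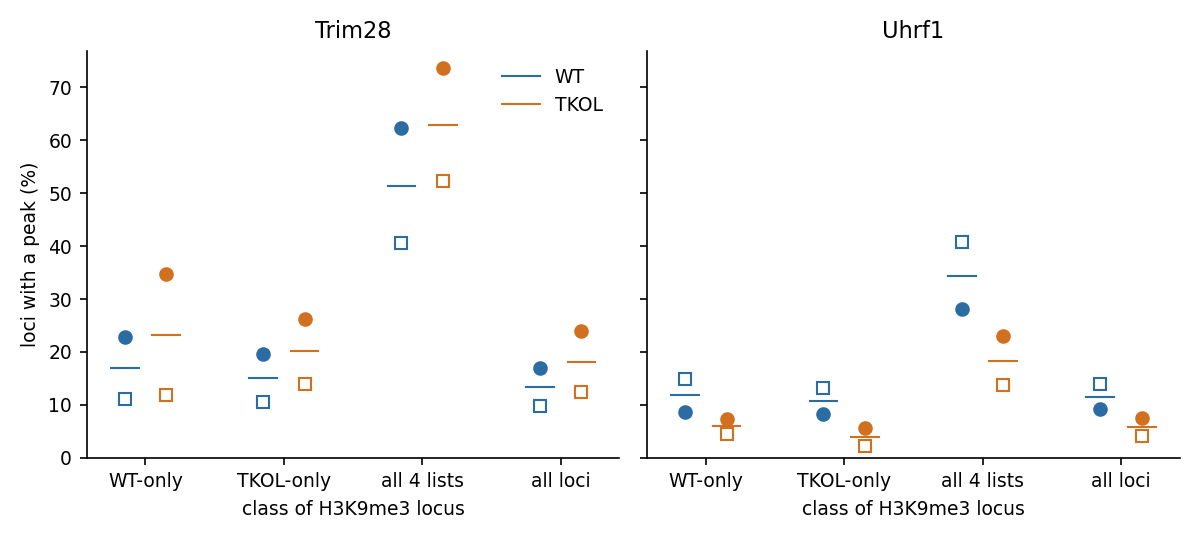
Share of H3K9me3 loci of each class with a Trim28 (left) or Uhrf1 (right) peak (y axis, %), in WT (blue) and TKOL (orange), with replicate 1 as a filled circle, replicate 2 as an open square and the mean of both as a line. Shared loci have the highest shares for both proteins, and the Uhrf1 values of TKOL lie below those of WT in every class.

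The X chromosome held a smaller share of the marked sequence in TKOL. It carried 8.90% and 8.89% of the covered bases in WT and 7.54% and 7.46% in TKOL, a difference of -1.40 points that was above the SD of either pair of replicates (0.00228 and 0.0601 points, exact permutation p = 0.333). The X makes up 6.28% of the assembly, and the DKO0 lists had 6.31% and 7.91%, further apart than WT and TKOL. Of the 21 chromosomes, 10 (47.6%) had a higher and 5 (23.8%) a lower share in TKOL without overlap, so separation alone is common at this n. The X difference was the largest in size, followed by chromosome 6 (4.70% and 4.62% in WT, 5.89% and 5.04% in TKOL) and chromosome 10 (7.50% and 7.58% in WT, 6.42% and 7.35% in TKOL). It kept its sign at equal list size (-1.15 points), for peaks whose -log10 q-value reached 5 (-3.21 points) and without any one list. By number of loci, 7.81% of WT-only and 7.65% of TKOL-only loci lay on the X.

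Genomic copies of the IAPEz and IAP LTR amplicons used by the study for hairpin sequencing were located by sequence match. IAPEz copies are internal parts of autonomous IAP elements, the most active family of mouse retrotransposons with long terminal repeats. Of 430 IAPEz copies, 51.9% and 53.7% had a peak in WT, whereas the TKOL lists differed widely from each other, with 68.8% in replicate 1 and 13.02% in replicate 2 (exact permutation p = 1). DKO0 had 88.8% and 54.2%. Almost all of this sequence lay outside the line-specific classes, with an IAPEz match in 1 WT-only locus, no TKOL-only locus and 233 shared loci. For the 7310 IAP LTR copies the shares were 7.14% and 6.29% in WT and 21.5% and 7.87% in TKOL (difference 7.96 points, exact permutation p = 0.333, no overlap). This difference was 1.15 points without TKOL replicate 1, 14.8 points without TKOL replicate 2, 3.89 points at equal list size and 1.68 points with peaks limited to a -log10 q-value of 5 and above. TKOL replicate 2 thus stood low for IAPEz copies beside the other lists, and without it the IAPEz difference turned from -11.9 to 16.0 points.

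**Figure D5:**
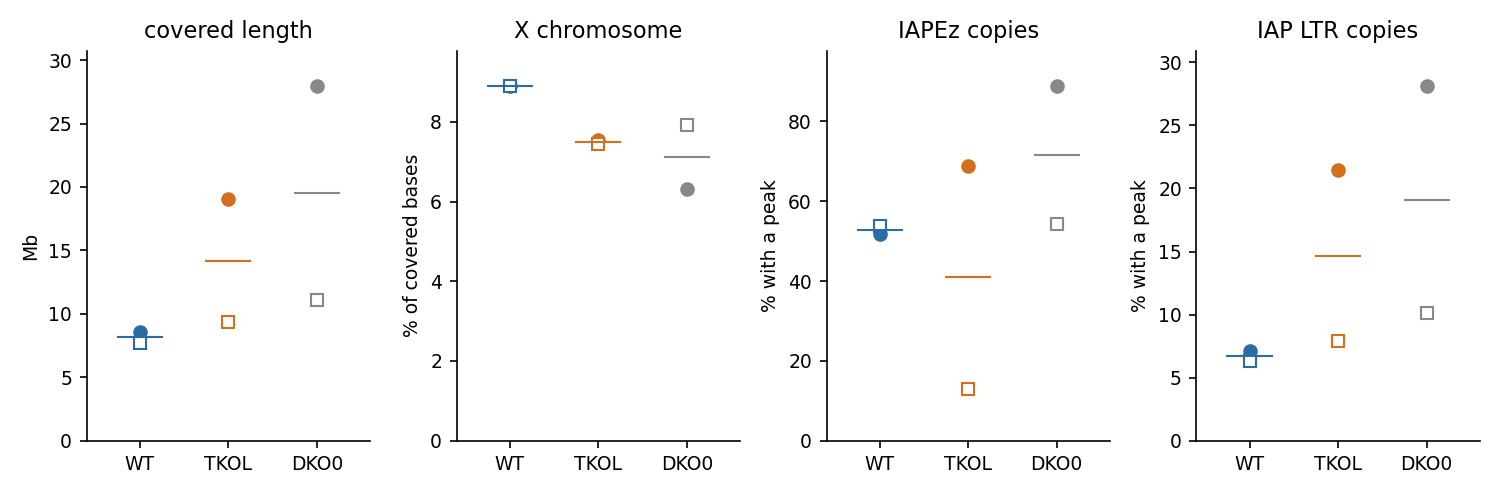
Covered length (Mb), share of covered bases on the X chromosome (%), and share of IAPEz and of IAP LTR copies with a peak (%), for each H3K9me3 list of WT (blue), TKOL (orange) and DKO0 (grey), with replicate 1 as a filled circle, replicate 2 as an open square and the mean as a line. The X share separates WT from TKOL with close replicates, and the IAPEz share differs more between the TKOL replicates (68.8% and 13.02%) than between the lines.

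The strongest loci of all were common to both lines. The shared locus at the end of chromosome 18 nearest Gm17635, at chr18:90771433-90772031, had -log10 q-values of 229 and 229 in WT and 219 and 233 in TKOL, and the locus nearest Gm14496 had 191 and 197 in WT and 190 and 188 in TKOL. Next came a locus on chromosome 9 nearest Gm5614 (176 and 176 in WT, 180 and 180 in TKOL) and a pair of X-linked loci nearest Mid1, a microtubule-associated ubiquitin ligase encoded at the pseudoautosomal boundary (177 and 172 in WT, 181 and 154 in TKOL for the first). All 5 had peaks in every Trim28 and Uhrf1 list of both lines. Over shared loci such a peak in all 8 of those lists was found at 1.25% of 5368 loci below a strength of 2 and at 31.8% of 151 loci at 10 or more, where 53.6% were tandem arrays.

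Among loci already called in all 4 lists, peak enrichment did not differ detectably between the lines. A locus that fell below the call in any list could not enter this test, so it cannot speak to losses or gains of peaks. Across 9368 loci, limma on the median-centred log2 fold enrichment with Benjamini-Hochberg adjustment called 0 loci higher and 0 lower in TKOL (0% each), with 238 and 176 at an unadjusted p below 0.05. The median fold enrichment was 3.25 and 3.35 in WT and 2.99 and 3.69 in TKOL, and after the median shift between replicates (0.041 on the log2 scale in WT, 0.30 in TKOL) was removed, the median absolute difference between replicates of a locus was 0.12 (log2) in WT and 0.19 in TKOL. The lowest adjusted p, 0.0602, belonged to an array inside Mid1 at chrX:166424066-166424544, chosen after its values were seen, with fold enrichments of 1.84 and 2.15 in WT and 3.74 and 4.57 in TKOL (log2 difference 1.05 ± 0.12, SE). DKO0 had 3.35 and 3.70 there. In limma with the replicate block or with length-weighted fold enrichment this locus passed the threshold.

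Fewer imprinted genes had a peak in TKOL than in WT. A peak within the gene or 5 kb around it was found at 11 and 10 of 40 imprinted genes in WT and at 8 and 5 in TKOL (exact permutation p = 0.333, no overlap), while over all 22367 protein-coding genes the numbers went the other way, 3910 and 3213 in WT and 5596 and 4205 in TKOL. In WT only Ddc, Igf2r, Impact, Inpp5f, Nnat and Ube3a had a peak in both lists, and in TKOL only Ddc, Inpp5f, Peg10 and Ube3a. Genes were counted singly, so 1 peak can count for more than 1 gene where their windows overlap. Of the imprinted genes 3 (7.5%) had a peak in both WT lists and none in TKOL, against 98 (0.438%) of all protein-coding genes, and none had the reverse, against 521 (2.33%). These genes, named after their values were seen, were Igf2r, Nnat and Impact. The WT peaks of Igf2r, the growth-limiting receptor whose control region lies in an intron, were at chr17:12936676-12936816 and chr17:12936165-12936351, 324 bp apart and 25.7 and 26.2 kb into the gene. Those of Nnat, a paternally expressed neuronal gene, lay 124 bp apart, at -1.117 and -1.392 kb from its start, and those of Impact lay 870 bp apart, 1.69 and 0.716 kb into the gene. Each was weak, with -log10 q-values between 1.07 and 2.13. Because the replicate peaks did not share a base, none of these was counted as a WT-only locus. The only imprinted gene with a line-specific locus was Ube3a, with an intronic TKOL-only locus (1.32 and 1.69). Elsewhere in Ube3a or 5 kb around it both WT lists had a peak as well, so the gene was marked in both lines. Inpp5f and Ddc carried shared loci (2 of 40 genes, beside 6.79% of all protein-coding genes).

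Over all protein-coding genes the share with a peak was 17.5% and 14.4% in WT and 25.0% and 18.8% in TKOL, against which each list is to be read. Hox genes had a peak at 1 and 3 of 40 members in WT (2.5% and 7.5%) and 0 and 3 in TKOL (0% and 7.5%), below that background. Of 371 zinc finger genes named Zfp, which include many KRAB repressors of retrotransposons, 58 and 49 had a peak in WT and 112 and 69 in TKOL. Line-specific loci were within 5 kb of 3 of them in WT (0.809%, against 1.08% of all protein-coding genes) and of 12 in TKOL (3.23%, against 3.53%), shares below that background. Named by strength, these were Zfp575, Zfp629 and Zfp747 for WT, and Zfp536, Zfp534, Zfp438 and Zfp933 for TKOL, with strengths of at most 2.17. Zfp575 carried a shared locus as well. No Zfp gene had a peak in both WT lists and none in TKOL (0%, against 0.438% of all protein-coding genes). The 3 genes named for WT thus also had a peak elsewhere in the gene or 5 kb around it in at least 1 TKOL list. The reverse, both TKOL lists and no WT list, held for 14 Zfp genes (3.77%, against 2.33%). Zfp568, a KRAB repressor of an Igf2 placental transcript, carried the only line-specific locus of the 43 genes for DNA methylation and H3K9me3 machinery, a TKOL-only peak 3.92 kb upstream (3.67 and 1.17). WT replicate 2 had a peak elsewhere in Zfp568 or 5 kb around it. A peak was found at 5 and 3 of these 43 genes in WT (11.6% and 6.98%) and 14 and 8 in TKOL (32.6% and 18.6%), the last value being at the background of that list.

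Of 44 germline genes, 10 and 10 had a peak in WT (22.7% each) and 20 and 11 in TKOL (45.5% and 25.0%), and 2 had a TKOL-only locus (4.55%, beside 3.53% of all genes). Sycp1, a synaptonemal complex protein, carried an intronic TKOL-only locus (2.02 and 2.75) besides a shared one. Tex14, of the intercellular bridges of germ cells, carried another TKOL-only locus (1.31 and 2.75), and WT replicate 1 had a peak elsewhere in Tex14 or 5 kb around it. Stk31, a testis kinase with a Tudor domain, had a shared locus of 12.2 and 15.1 in WT and 9.91 and 2.98 in TKOL. Of 20 genes of the 2-cell stage, 3 and 2 had a peak in WT (15% and 10%) and 11 and 4 in TKOL (55% and 20%), with a WT-only locus over an exon of Sp110 (1.46 and 1.19) and a shared one upstream of Zscan4b. Both TKOL lists had a peak elsewhere in Sp110 or 5 kb around it. Pluripotency genes had few peaks in both lines, at 1 and 1 of 21 in WT (Nanog in each list) and 2 and 1 in TKOL (Esrrb in each list).

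Of 1087 olfactory receptors, 71 and 63 had a peak in WT and 122 and 88 in TKOL, with WT-only loci at 2 (0.184%, Olfr54 and Olfr504) and TKOL-only loci at 7 (0.644%), both below the shares of all protein-coding genes. Of the latter, Olfr1390 (4.20 and 3.82) and Olfr224 (8.22 and 2.54) were strongest. Olfr54 and Olfr504 also had a peak elsewhere in the gene or 5 kb around it in at least 1 TKOL list. Of 117 Vmn2r pheromone receptors the numbers were 33 and 30 in WT and 51 and 33 in TKOL, and of 203 Vmn1r receptors 12 and 14 in WT and 34 and 18 in TKOL. WT-only loci were at 3 Vmn2r genes (2.56%, against 1.08% of all protein-coding genes), Vmn2r62, Vmn2r27 and Vmn2r121. TKOL-only loci were also at 3 (2.56%, against 3.53%), Vmn2r35, Vmn2r13 and Vmn2r56. Of these genes only Vmn2r56 had peaks in 1 line alone. The others also had a peak elsewhere in the gene or 5 kb around it in at least 1 list of the other line. Cytochrome P450 genes (98) had 22 and 18 in WT and 33 and 16 in TKOL, with TKOL-only loci at 4 (4.08%, near the 3.53% of all protein-coding genes), Cyp2c69, Cyp4a32, Cyp2c39 and Cyp2c66. Cyp4a32 and Cyp2c66 had a peak elsewhere in both WT lists, and Cyp2c39 in WT replicate 2. Defensins (53) had 3 and 7 in WT and 12 and 7 in TKOL, Rhox genes (30) 3 and 4 in WT and 6 and 6 in TKOL, and clustered protocadherins (24) 2 and 1 in each line. The lines did not overlap for the Zfp, germline, 2-cell stage, machinery, Vmn1r, olfactory receptor and Rhox lists (exact permutation p = 0.333 each, higher in TKOL), as over all protein-coding genes, and they overlapped for the other lists apart from the imprinted genes. At equal list size the mean excess of TKOL over all these lists fell from 121 to 1.5 genes, and 77 fewer protein-coding genes had a peak in TKOL.

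The megabase with most WT-only loci was chrX:121000001-122000000 (10 WT-only, 2 TKOL-only and 39 shared of 302 loci, with Vmn2r121 and 6 predicted genes). After it came chrX:122000001-123000000 (7, 3 and 30 of 239) and chr10:7000001-8000000 (5, 0 and 2 of 48), the last of which was the array run beside 9230019H11Rik. The megabase with most TKOL-only loci was chr7:7000001-8000000 (9 TKOL-only, 0 WT-only and 6 shared of 97 loci, over Zfp and Vmn2r genes). It was followed by chr4:145000001-146000000 (8, 1 and 6 of 225, over the zinc finger gene Rex2 and predicted genes) and chr7:14000001-15000000 (8, 1 and 4 of 56, over the Sult2a sulfotransferases), and 3 other megabases also held 8. These ranks are by count, not by share of the loci in a megabase. Over all loci, 1.03% were WT-only and 4.43% TKOL-only. A run of 4 TKOL-only loci within 10890 bp overlapped Vmn2r35, with strengths of 1.38 to 2.21.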

How the data were processed

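H3K9me3 was measured by chromatin immunoprecipitation and sequencing in WT, TKOL and DKO0 cells, with 2 replicates per line. As the authors describe it, reads were aligned to mm9 with BWA, duplicates were removed with GATK and broad peaks were called with MACS2. Each deposited list gives per peak a fold enrichment (a linear ratio), a -log10 p-value and a -log10 q-value per the authors' peak caller, and the deposited fold enrichment and q-value were used. Peak names in the single-replicate lists mention no input library. Read depth is not in the lists, so depth per sample is unknown here. Reads from repeated sequence can be placed at any of its copies, so a peak in a repeat may belong to another copy. Pooled lists were not used, since the single-replicate lists were compared, and the hairpin table was not used. Uhrf1 was measured through a FLAG tag on the endogenous gene by ChIPmentation, Trim28 by chromatin immunoprecipitation.

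Peaks on chromosomes 1 to 19, X and Y were merged into loci (1 bp overlap). Genes came from GENCODE M1 (NCBIM37, the same assembly as mm9). Values per list were compared by exact two-sided permutation of 2 against 2 lists, and enrichment at shared loci with limma 3.58.1 (trend, median-centred lists, threshold 0.05 after Benjamini-Hochberg adjustment) in R 4.3.3. IAPEz and IAP LTR copies were found with BLAST 2.17.0 (at least 80% identity over 80% of the amplicon). The code was tested on simulated data. Alternatives were joined peaks, a stricter q-value, equally long lists, a minimum cover of the locus, other scalings, the replicate block and leaving out each list. Named loci are the 10 strongest per class and the 5 with the longest covered length in the replicate that covers less, the 5 strongest shared loci, up to 4 genes per list and class, machinery genes with a line-specific locus, and the top 3 megabases per class. Members and gene lists were chosen with earlier results of these data known.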

Additional observations from a re-analysis of the deposited data

How the results depend on the processing

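Joining peaks up to 1000 bp apart gave 523 WT-only loci (log2 ratio -2.26), with both DKO0 lists at 13.2% of WT-only and 30.5% of TKOL-only loci. Peaks reaching a -log10 q-value of 5 gave 66 WT-only, 365 TKOL-only and 434 shared loci (log2 ratio -2.47), DKO0 shares of 4.55% and 58.9%, a gene share difference of -1.33 points and an IAPEz difference of 6.86 points, both turned in sign. At that limit a locus also counts as line-specific where the other line has only weaker peaks. With full lists, 10 WT-only loci and 1 TKOL-only locus reached a strength of 5, so most loci of these filtered classes were not line-specific in the full lists. An equal number of peaks gave 1476 and 1552 loci (log2 ratio -0.072), DKO0 shares of 12.5% and 29.6%, a gene share difference of -0.0057 points and a difference of -77 protein-coding genes, both turned in sign. Requiring peaks to cover 50% of a locus left 3137 shared loci and DKO0 shares of 12.96% and 34.2%. Leaving out 1 list gave 1298 to 8221 WT-only, 5636 to 31657 TKOL-only and 9808 to 12273 shared loci, log2 ratios of -4.61 to 0.54, DKO0 shares of 5.69% to 48.0% (WT-only) and 11.3% to 49.4% (TKOL-only), IAPEz differences of -39.8 to 16.0 points, median length differences of -1 to 4 bp and gene share differences of -0.065 to 0.88 points. The limma counts were 0 to 433 higher and 0 to 273 lower; the large counts came without a TKOL list, where the spread rests on the WT pair alone. A single locus (1) was higher in each of the fits with no centring, the replicate block, length-weighted enrichment, joined peaks or an equal number of peaks. It was the Mid1 array with the replicate block and with length-weighted enrichment, and a different locus with no centring. For joined peaks and an equal number of peaks it was not identified. The replicate numbers did not pair the lists (correlation of deviations 0.065 at shared loci, -0.013 over all loci), and with the replicate block, whose smallest p is 0.5, differences were unchanged in size (X share -1.40 points, p = 0.5 in the exact permutation). Gene counts under alternatives and the equal-number limma fit were chosen after seeing the data, and single gene lists were not recomputed one by one. With 2 lists a line no exact test could pass 0.05.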

Other observations

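Loci with a peak in 1 list of each line, which belong to none of the classes compared above, numbered 7741 and had a median length of 293 bp. Of these, 84.1% held mostly high-copy words, 2.89% an IAP LTR match and 27.3% a peak in both DKO0 lists. The 7836 loci found in 3 lists had a median length of 426 bp, 11.2% of them lay on the X chromosome, against 7.31% of all loci, and 60.8% were marked in both DKO0 lists. A Trim28 peak of TKOL replicate 1 lay in 49.8% of these loci. Assembly gaps lay within 1 kb of 5 WT-only loci (0.601%), 4 TKOL-only loci (0.112%) and 43 shared loci (0.459%).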
